A study of Mus musculus with 24 samples.

Results

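The second postnatal week of the mouse medial prefrontal cortex (mPFC), the frontal area that takes part in executive and social behaviour, was described by comparing its RNA at postnatal day 7 (P7) and P14. The comparison used the P7 and P14 mPFC libraries, which are 7 of the 24 libraries of the series, 2 from P7 mice and 5 from P14 mice. All were made from punches of C57BL/6 mice, 1 mouse per library, as stranded total RNA depleted of ribosomal RNA. Both P7 mice were female, as was the mouse of P14 replicate 4, and the other 4 P14 mice were male. The 5 mPFC libraries of P56 mice, male in replicates 3 and 5 and otherwise female, were not compared. They did enter the filter, the scaling and the estimate of spread behind each test. Punches were 1.5 mm wide at P7 and 2 mm at P14, so that age, punch size and, for the most part, sex cannot be told apart.

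Between these ages cortical neurons slow the growth of their axons and form synapses at a high rate. Glia follow a later schedule. Astrocytes take on transporters and gap junctions, microglia acquire their mature surface receptors, and oligodendrocyte precursors begin to produce myelin, the insulating sheath of axons. Receptor and channel families exchange juvenile for adult members in the same period, the best known case being the replacement of GluN2B by GluN2A in NMDA receptors.

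Gene reads numbered 87986885 to 116702588 per library. One of the P7 libraries did not match its label in full. Replicate 1 held the 13 listed genes of midbrain dopamine neurons at a summed 1086 CPM (counts scaled to the library size and by edgeR's TMM factors), against 32.8 in replicate 2 and 40.7 to 57.2 at P14. *Th*, which encodes the rate-limiting enzyme of dopamine synthesis, was at 150.2 and 1.83 CPM at P7 and 5.02, 4.32, 3.22, 3.55 and 6.72 CPM at P14. The dopamine transporter gene *Slc6a3* was at 396 and 1.18 CPM at P7, and *Ddc*, whose enzyme acts next in the pathway, was at 74.7 and 3.48. The midbrain transcription factor genes *En1*, *Lmx1a*, *Foxa2*, *Foxa1* and *Pitx3* had 1636, 1302, 1050, 554 and 211 reads in P7 replicate 1, at most 3 in replicate 2 and at most 4 in any P14 library. They were not tested, since fewer than 3 libraries reached 10 reads. Cortical excitatory neuron markers were present in all 7 libraries, at a summed 1085 and 1439 CPM at P7 and 2307 to 2776 CPM at P14. The 2 P7 libraries differed by 4-fold or more in 231 genes higher in replicate 1 and 35 higher in replicate 2, of 14504 with at least 1 CPM in one of them. Pairs of P14 libraries differed so in 2 to 113 genes. A change was therefore called only with an adjusted p under 0.05 and both P7 libraries on the same side of all 5 P14 libraries. For several lists that depend on 1 P7 library, the count or the median is also given without it.

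By this rule 5510 of 18996 tested genes (29.0%) were called, 2885 higher (15.2%) and 2625 lower (13.8%) at P14. The adjusted p alone was passed by 5860 genes (30.8%), and 7411 (39.0%) had no overlap between ages. Changes of 2-fold or more were called for 940 genes that rose and 929 that fell (9.84% of those tested). The median log2 fold change of all genes was −0.02. The only female P14 mouse lies on the P14 side in each call, since the rule demands it. Its library was the highest of the 5 at P14 for 918 (31.8%) of the genes that rose. In whole tissue, fewer cells of a type and less RNA per cell cannot be told apart.

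The genes whose P7 and P14 libraries lay farthest apart are given first. *Fam107a* had 5.94 and 12.8 CPM in the P7 libraries and 238, 336, 272, 225 and 239 CPM in the P14 libraries. This gene (chromosome 14, 8296274 to 8318023 in GRCm38) encodes an actin-binding stress protein, and its lowest P14 library was far above its highest P7 one, with a 28.0-fold rise (log2 fold change 4.81 ± 0.31 SE, adjusted p = 8.59e-07). *Rin1*, a Ras effector of forebrain neurons, was at 2.21 and 2.15 CPM at P7 and 24.2, 28.0, 30.3, 29.5 and 25.6 CPM at P14, a 12.6-fold rise with little spread at either age (adjusted p = 8.92e-09). *Cckbr*, the receptor of the neuropeptide cholecystokinin, was at 8.26 and 6.34 CPM at P7 and 52.3, 55.5, 68.2, 61.8 and 69.2 CPM at P14 (8.40-fold, adjusted p = 2.39e-07).

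Other genes with wide gaps varied more among the P14 mice. *Tnnc1*, a troponin C gene, was at 0.588 and 0.584 CPM at P7 and 11.6, 11.8, 25.5, 9.26 and 5.56 CPM at P14, so that its 5 P14 values spanned a wider range than those of *Rin1*. Its log2 fold change was 4.44 ± 0.62 SE. *Ankrd33b* and *Serpinb8* rose by 3.99 and 3.73 on the log2 scale (adjusted p = 1.02e-05 and 1.23e-05), the former from 2.94 ± 2.26 (mean ± SD, n = 2) to 47.0 ± 6.08 CPM (n = 5).

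Among the genes that fell, *Trim67* (chromosome 8, 124793019 to 124834713), a neuronal ubiquitin ligase of axon branching, was at 70.0 and 47.2 CPM at P7 and 2.33, 2.61, 2.12, 5.02 and 2.85 CPM at P14. Its fall was 19.7-fold (log2 fold change −4.30 ± 0.35 SE, adjusted p = 4.26e-06). The paper lists *Trim67* among the genes that differed between the sexes. Both P7 mice were female, and the value of 5.02 CPM was that of the only female P14 mouse. With sex as a term the fall was still called, but most of the age difference is also one of sex. *St8sia2*, the sialyltransferase that builds polysialic acid on the adhesion molecule NCAM in young neurons, was at 41.1 and 18.6 CPM at P7 and 1.21, 1.01, 1.64, 2.57 and 1.60 CPM at P14 (log2 fold change −4.22, adjusted p = 2.88e-06). The library labelled P7 replicate 1 was the higher P7 library for both genes, and neither age overlapped the other.

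*Fabp7*, the brain lipid-binding protein of radial glia and immature astrocytes, was at 420.3 and 528 CPM at P7 and 72.5, 58.6, 61.6, 53.0 and 56.2 CPM at P14, a 7.85-fold fall (adjusted p = 4.45e-07). *Ntf3*, the gene of neurotrophin 3, was at 18.4 and 8.27 CPM at P7 and 1.03, 0.752, 1.46, 0.816 and 0.0446 CPM at P14 (log2 fold change −4.01, adjusted p = 4.18e-04). *Slc6a4*, the serotonin transporter that thalamic axons express for a time in early life, was at 17.5 and 8.07 CPM at P7 and 0.374, 0.428, 0.316, 0.396 and 0.925 CPM at P14. Serotonergic cells of the midbrain also express it, and P7 replicate 1 was the higher of the 2 libraries. Without that library the fall of *Slc6a4* was still called, at −4.07 on the log2 scale (adjusted p = 3.56e-05). *Stk32b*, *Mex3a* and *Vash2* fell by 12.5-, 7.18- and 6.94-fold (adjusted p = 3.69e-06, 2.26e-06 and 1.09e-05). *Mex3a* encodes an RNA-binding protein of progenitor cells, and *Vash2* a tubulin-modifying vasohibin.

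**Figure D1:**
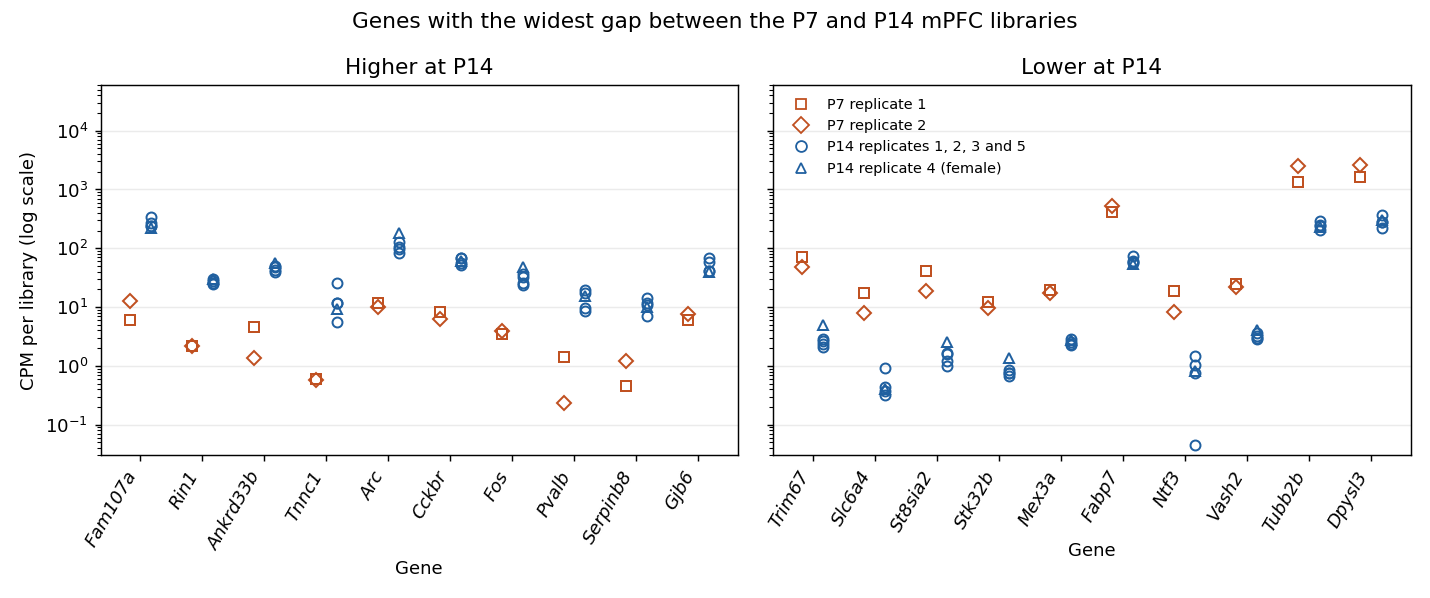
CPM of each P7 and P14 mPFC library (y axis, log scale) for the 10 protein-coding genes in each direction whose nearest P7 and P14 libraries lie farthest apart (x axis); each point is 1 library. The 5 P14 libraries of *Fam107a* sit between 225 and 336 CPM and its P7 libraries at 5.94 and 12.8, and in *Trim67* the order is turned round.

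Genes of the cell cycle fell together. Of 22 listed genes, 21 were called lower and none higher, against 13.8% of all genes lower, with a median log2 fold change of −1.43 where that of all genes was −0.02. The summed level of the list was 226 and 246 CPM at P7 and 71.1 to 111 CPM at P14, so that both P7 mice had about the same level and every P14 mouse had less. *Cdk1*, the kinase that drives entry into mitosis, was at 6.97 and 8.05 CPM at P7 and 2.68, 2.59, 1.75, 1.60 and 2.06 CPM at P14 (log2 fold change −1.81 ± 0.38 SE, adjusted p = 0.00292). *Rrm2*, a subunit of the reductase that makes deoxyribonucleotides, was at 16.2 and 18.9 CPM at P7 and 5.83, 4.87, 4.27, 4.03 and 5.14 CPM at P14, 3.63-fold lower at P14 (adjusted p = 5.87e-05). The spindle checkpoint kinase gene *Bub1* fell by 1.88 on the log2 scale and *Aurkb* and *Ube2c*, which act in chromosome segregation and cyclin destruction, by 1.81 and 1.77. *Ccnb1* was the exception (log2 fold change −0.25, adjusted p = 0.354). The count was 17 without P7 replicate 1 and 16 without P7 replicate 2, and *Aurkb* was not called without either of them, nor *Ube2c* without replicate 1. *Uhrf1*, which guides the maintenance of DNA methylation during replication, moved in the same direction, from 7.35 and 7.70 CPM to 1.34 to 2.65 CPM (log2 fold change −1.90 ± 0.51 SE, adjusted p = 0.0133).

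Promoters of the cell cycle genes were looked at for short motifs, since 18 of the 22 had a window from 250 bases before to 50 after the start site in RefSeq (GRCm38.p6). The CCAAT box, searched as CCAAT on either strand, was held by 16 of these 18 and by 41.1% of the 27025 genes with a window. It was not particular to this list, since all 11 cholesterol synthesis genes with a window held it too. The letters TTTGAA, the core of the cell cycle homology region, were held by 10 of 18 and by 20.2% of all. The match nearest the start site and upstream of it follows for the named members, each as 29 bases of the sense strand with the box in capitals, ATTGG being its other strand.
Bub1 (chr2:127831885-127831913, minus strand): ccgcagcggagaCCAATagtcaggcgcgc
Rrm2 (chr12:24708192-24708220, plus strand): ggtcagcggcgtCCAATgggaggcgaggc
Cdk1 (chr10:69352944-69352972, minus strand): acgtgcaatcggATTGGcggatcccggga
Ube2c (chr2:164769860-164769888, plus strand): agcgagcctttgATTGGctagcgcagcgg
The boxes of these 4 genes began between 42 and 57 bases before the start site. A match of these letters is a description of the sequence only.

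Genes of immature neurons and of axon growth fell as well, 17 of 21 (81.0%, against 13.8% of all genes) with none higher. Their median was −1.45, with −1.63 without P7 replicate 1 and −1.03 without P7 replicate 2. The list summed to 17305 and 30447 CPM at P7 and 7761 to 9188 CPM at P14. Replicate 2 was the higher P7 library for *Tubb2b*, *Dpysl3* and *Cd24a*, and replicate 1 for *Nnat* and *Nrep*. *Tubb2b* (chromosome 13, 34127008 to 34130354), a beta tubulin of migrating neurons, was at 1339 and 2517 CPM at P7 and 238, 204, 244, 231 and 285 CPM at P14, a 8.02-fold fall (log2 fold change −3.00 ± 0.17 SE, adjusted p = 4.53e-07). *Dpysl3*, also called CRMP4 and active in growth cones, was at 1635 and 2648 CPM at P7 and 277, 218, 283, 304 and 362 CPM at P14 (7.41-fold, adjusted p = 7.88e-07).

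*Dcx*, the microtubule protein doublecortin, was at 275 and 319 CPM at P7 and 46.0, 38.4, 46.1, 75.0 and 46.2 CPM at P14 (log2 fold change −2.56 ± 0.29 SE, adjusted p = 4.43e-05). P14 replicate 4 was the highest of the P14 mice for this gene and still far below P7. *Sox11*, a transcription factor of newborn neurons, differed little within an age, at 80.1 and 80.7 CPM at P7 and 19.1, 18.7, 18.9, 19.8 and 23.1 CPM at P14 (4.04-fold, adjusted p = 1.26e-06). *Cd24a*, a surface glycoprotein of neuroblasts, was 192 CPM in P7 replicate 1 and 628 in replicate 2, both above the 81.8 to 102 CPM of P14 (log2 fold change −2.12, adjusted p = 1.53e-04). The 4 members that were not called were *Basp1*, *Igfbpl1*, *Neurod1* and *Stmn1*. *Gap43*, the growth-cone phosphoprotein, fell by 1.29 on the log2 scale. The axon guidance list had 2 of 32 members lower, *Epha7* (−0.37) and *Efna3* (−0.31), and none higher, which is below the share over all genes in both directions. Both calls were lost with sex or replicate number as a term. The calls in this list depended on the libraries, with 6 lower and 4 higher without P7 replicate 1 and 7 lower and 2 higher without P7 replicate 2, when neither *Epha7* nor *Efna3* was called.

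Of 15 neurofilament and tubulin genes 6 were lower, where 13.8% of all genes were, and 2 higher (13.3%, against 15.2%), and 7 were not called. *Tuba1a* and *Tubb5*, the tubulins of growing neurites, fell by 1.52 and 1.34 on the log2 scale, from 3728 and 8441 CPM to 1904 to 2252 CPM in the first case. *Tuba4a*, an alpha tubulin of mature neurons, was at 312 and 363 CPM at P7 and 874, 886, 804, 821 and 797 CPM at P14 (2.48-fold higher, adjusted p = 2.03e-05), and *Tuba8* rose by 2.12 on the log2 scale. Tubulin genes share long stretches of sequence, so reads of 50 bases counted only when unique may be divided unevenly among them. The neurofilament genes *Nefl*, *Nefm* and *Nefh* had log2 fold changes of 0.13, −0.10 and 0.01, none of them called, nor was *Tubb4a*, a tubulin of the mature brain (0.69). Without P7 replicate 1 the list had 5 of 15 members higher in place of 2.

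**Figure D2:**
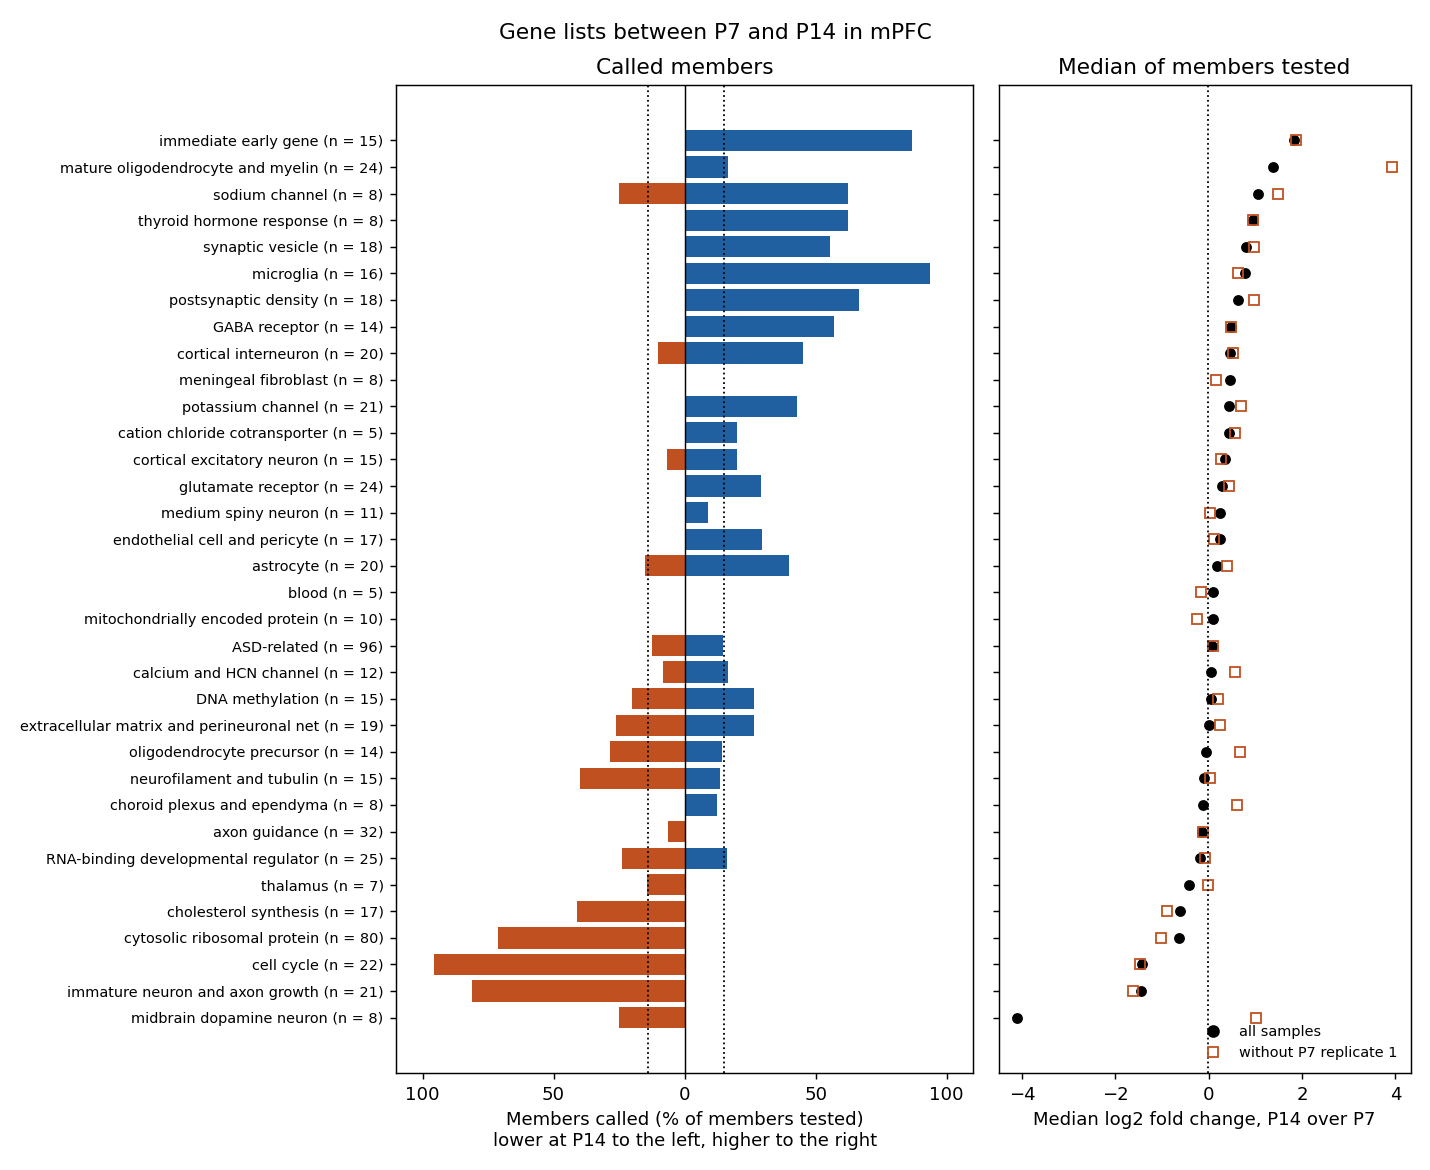
Left, share of each list's tested members called lower (left of 0) or higher (right of 0) at P14, with dotted lines at the share over all genes; right, median log2 fold change of the members tested with all samples (filled circles) and without P7 replicate 1 (open squares), with a dotted line at the median of all genes. Cell cycle and immature neuron genes lie at −1.43 and −1.45 in the right panel with little change when P7 replicate 1 is left out, whereas the myelin list moves from 1.37 to 3.92.

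Immediate early genes, which neurons and other cells transcribe within minutes of a stimulus, were higher at P14. Of 15 listed genes 13 were called higher and none lower, against 15.2% of all genes higher, with a median of 1.83. The summed level was 150.1 and 98.6 CPM at P7 and 333 to 672 CPM at P14. *Arc* (chromosome 15, 74669083 to 74672570), whose protein regulates AMPA receptors at active synapses, was at 11.5 and 10.1 CPM at P7 and 106, 127, 84.1, 179 and 95.9 CPM at P14, a 10.9-fold rise (log2 fold change 3.45 ± 0.46 SE, adjusted p = 1.41e-04). *Fos* was at 3.47 and 3.98 CPM at P7 and 35.9, 32.9, 23.8, 48.6 and 26.0 CPM at P14 (8.97-fold, adjusted p = 2.23e-05). Both P7 values of *Arc* and *Fos* lay close together and far below all P14 values.

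*Egr1*, a zinc finger factor of the same class, was at 8.72 and 5.81 CPM at P7 and 35.05, 33.8, 30.9, 101 and 34.97 CPM at P14 (log2 fold change 2.69 ± 0.51 SE, adjusted p = 0.00159). Here P14 replicate 4 was well above the other P14 mice, as it was for *Fosb*, which was at 0.111 and 0.198 CPM at P7 and 1.90, 1.39, 1.23, 4.42 and 1.57 CPM at P14 (log2 fold change 3.77, adjusted p = 5.65e-04). *Nr4a1*, an orphan nuclear receptor, rose by 2.53 and *Npas4*, a neuronal activity factor, by 2.30 on the log2 scale. *Egr3* and *Nr4a3* were not called (log2 fold change 1.07 and −0.41, adjusted p = 0.0568 and 0.564). Without P14 replicate 4 the count was 12, the call of *Ier2* being lost (adjusted p = 0.0508) and those of the members named here kept. Without P7 replicate 1 the count was 12, and without P7 replicate 2 it was 10.

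Of the 15 genes 11 had a promoter window, and all 11 held the letters TGACG, the shortest form of the cyclic AMP response element, on one strand or the other. The share over all genes with a window was 23.0%. The full palindrome TGACGTCA was held by 2 of the 11 and by 2.03% of all. The matches of the named members with a window are printed for comparison, with those letters in capitals (CGTCA on the other strand).
Fosb (chr7:19310089-19310117, minus strand): tggagttgcgggTGACGcaagcgcggggg
Fos (chr12:85473812-85473840, plus strand): agttccgcccagTGACGtaggaagtccat
Nr4a1 (chr15:101266794-101266822, plus strand): cccctctccatgCGTCAcggagcgcttaa
These motifs were picked from 12 searched on both strands over 5 lists (cell cycle, immediate early, cholesterol synthesis, microglia, immature neuron) after their counts were seen. The others were TGACGTAA (0.581% of all windows), TTCGCGC (1.81%), CACGTG (8.09%), GGAAGT (26.6%), TATAAA (15.7%) and 3 forms of the serum response element. Of these 3 forms 2 are the same letters on opposite strands, so fewer than 12 of the motifs were distinct. TGACG lies within TGACGTCA and TGACGTAA.

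Markers of mature synapses rose. In the synaptic vesicle list 10 of 18 members were higher and none lower (median 0.79), and in the postsynaptic density list 12 of 18 were higher and none lower (median 0.62), against 15.2% of all genes higher. Without P7 replicate 2 the vesicle list also had 3 lower. *Slc17a7*, the vesicular glutamate transporter of cortical excitatory neurons, was at 140.4 and 189 CPM at P7 and 838, 941, 937, 1001 and 967 CPM at P14, a 5.68-fold rise (log2 fold change 2.51 ± 0.13 SE, adjusted p = 3.39e-07). *Sv2b*, a vesicle glycoprotein, was at 291 and 479.8 CPM at P7 and 1232, 1197, 1286, 1234 and 1403 CPM at P14 (3.30-fold, adjusted p = 7.56e-05). The ages were well apart for both. *Snap25* and *Syt1*, parts of the release machinery, rose by 1.15 and 1.01 on the log2 scale, *Syp* by 1.02 and *Syn2* by 1.39. *Syn1*, its sister gene, did not pass the test (log2 fold change 1.04, adjusted p = 0.231), nor did *Vamp2* (0.87, adjusted p = 0.105).

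On the postsynaptic side, *Camk2a*, the kinase of long-term potentiation, was at 142 and 209 CPM at P7 and 605, 657, 711, 761 and 465 CPM at P14 (3.65-fold, adjusted p = 3.19e-05). The scaffold genes *Dlg1*, *Baiap2*, *Dlgap2* and *Homer1* rose by 1.36, 1.43, 1.29 and 1.16 on the log2 scale. None of the 3 *Shank* genes was called (log2 fold changes 0.29, 0.28 and 0.25). In the cortical excitatory neuron list 3 of 15 markers were higher (20%, against 15.2% of all genes), *Slc17a7*, *Camk2a* and *Fezf2*. *Cux1*, a factor of the upper layers, was lower (log2 fold change −0.62, adjusted p = 0.00558), or 6.67% of the list against 13.8% of all genes. The layer factors *Tbr1*, *Bcl11b* and *Cux2* had log2 fold changes of 0.62, 0.38 and 0.35 and were not called. The call of *Fezf2* (0.60, adjusted p = 0.0479) was lost without either P7 library, without P14 replicate 3, 4 or 5, and with sex or replicate number as a term. It was also lost with median-of-ratios size factors and with only the 7 P7 and P14 libraries in the fit.

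Some members of the receptor families were called and others were not. Of 24 glutamate receptor genes 7 were higher (29.2%, against 15.2% of all genes) and none lower. Of 14 GABA receptor genes 8 were higher (57.1%) and none lower. The first count was 11 without P7 replicate 1 and the second 5 without P14 replicate 5. *Grin2a*, the adult GluN2A subunit, was at 140.1 and 97.8 CPM at P7 and 319.6, 364, 339, 525 and 309.9 CPM at P14, a 3.12-fold rise (log2 fold change 1.64 ± 0.23 SE, adjusted p = 1.70e-04). *Grin2b*, the juvenile GluN2B subunit, was at 623 and 437 CPM at P7 and 514, 539, 642, 1450.3 and 652 CPM at P14 and was not called (log2 fold change 0.52, adjusted p = 0.357). P14 replicate 4 was the highest of the 5 for both subunits, and the other P14 values of *Grin2b* lay around those of P7. Without it *Grin2a* was still called (1.49, adjusted p = 6.73e-05), and *Grin2b* had a log2 fold change of 0.15 (adjusted p = 0.708). *Grin2c* rose from 5.00 and 0.323 CPM to 14.7 to 25.2 CPM (log2 fold change 2.95, adjusted p = 0.00813), and *Grin1*, the obligatory subunit, rose by 1.02.

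Among AMPA receptor genes *Gria3* was at 102 and 125 CPM at P7 and 305, 298, 296, 349.6 and 295 CPM at P14 (2.72-fold, adjusted p = 7.70e-06), *Gria1* and *Gria2* rose by 0.68 and 0.58 on the log2 scale, and *Gria4* was not called (0.21). *Gabra5*, a GABA-A receptor subunit common in the young cortex, overlapped between the ages, at 136 and 205 CPM at P7 and 135, 125, 122, 134 and 155 CPM at P14 (log2 fold change −0.34, adjusted p = 0.13). *Gabrd* and *Gabra4*, which form extrasynaptic receptors, rose by 1.75 and 1.33. The chloride transporters *Slc12a5* (KCC2) and *Slc12a2* (NKCC1) were not called. *Slc12a5* was at 224 CPM in P7 replicate 1, within the P14 range of 196 to 360.0 CPM, and at 74.7 in replicate 2. Without replicate 1 its log2 fold change was 1.69 (adjusted p = 0.00205).

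**Figure D3:**
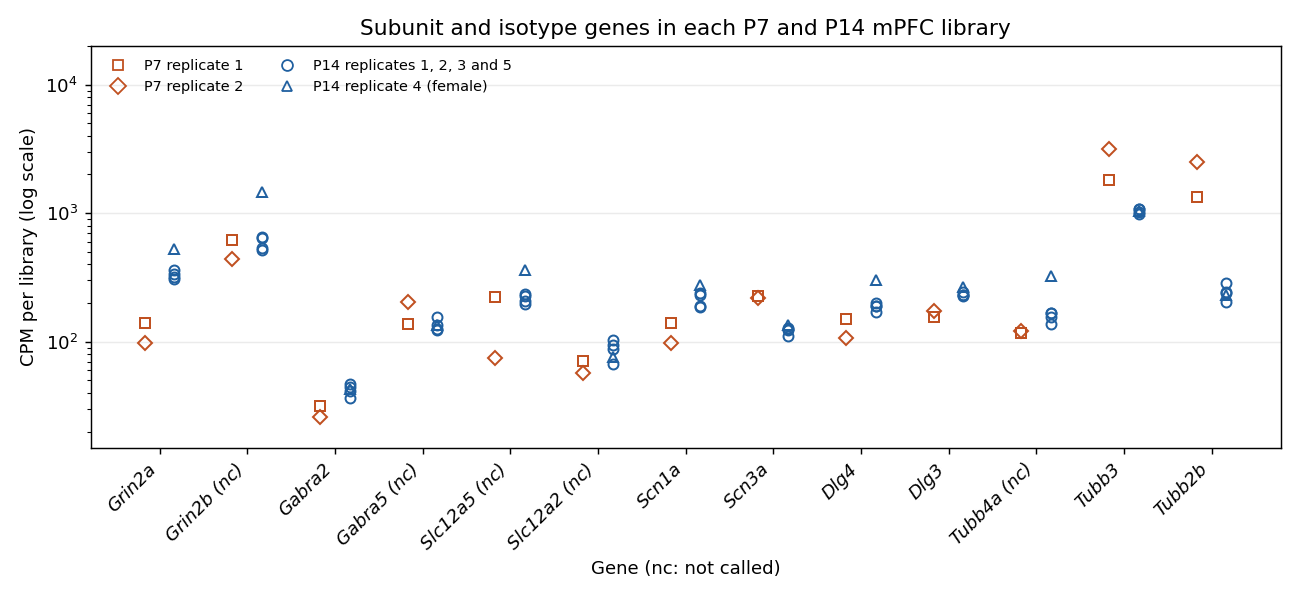
CPM of each P7 and P14 mPFC library (y axis, log scale) for genes of subunit and isotype pairs (x axis); each point is 1 library and "nc" marks genes that were not called. *Grin2a* rises from 119 to 371 CPM on average while *Grin2b* overlaps between ages, and *Scn1a* and *Scn3a* move in opposite directions.

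Voltage-gated channels of fast spiking and of the mature axon were among the genes that rose. *Kcna1*, the Kv1.1 channel of axons, was at 30.5 and 28.8 CPM at P7 and 123, 145, 111, 161 and 127 CPM at P14 (4.51-fold, adjusted p = 3.69e-06). *Kcnc2*, the Kv3.2 channel of fast-spiking cells, rose by 1.61 and the Kv1 subunit genes *Kcna2* and *Kcnab2* by 1.27 and 1.51 on the log2 scale. In all, 9 of 21 potassium channel genes were higher (42.9%, against 15.2% of all genes) and none lower. Their median log2 fold change was 0.44, with 0.69 without P7 replicate 1 and 0.15 without P7 replicate 2. The sodium channel genes moved both ways, 5 of 8 higher (62.5%, against 15.2% of all genes) and 2 lower (25%, against 13.8%). *Scn1a*, the Nav1.1 channel, was at 139 and 97.6 CPM at P7 and 230.2, 241, 191, 275 and 188 CPM at P14 (log2 fold change 0.92 ± 0.19 SE, adjusted p = 0.00289), and *Scn3a*, the channel of the immature brain, at 227 and 219 CPM at P7 and 127, 110.3, 122, 135 and 129 CPM at P14 (log2 fold change −0.84 ± 0.13 SE, adjusted p = 3.12e-04). The beta subunit gene *Scn2b* rose by 2.13. *Scn8a* rose by 1.19, a call that was lost without P7 replicate 2, as was that of *Dlg4* (PSD-95, 0.70), whose juvenile counterpart *Dlg3* (SAP102) also rose (0.54, adjusted p = 3.46e-04). The call of *Dlg4* was also lost with replicate number as a term and with only the P7 and P14 libraries in the fit.

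Of 20 listed interneuron genes 9 were higher, all but *Gad1* encoding calcium-binding proteins or peptides, and 2, *Adarb2* and *Reln*, lower (1 without P7 replicate 1, 4 without P7 replicate 2). *Pvalb*, the marker of fast-spiking basket cells, was at 1.43 and 0.229 CPM at P7 and 17.2, 19.5, 9.70, 15.6 and 8.67 CPM at P14 (16.6-fold, log2 fold change 4.05 ± 0.59 SE, adjusted p = 2.68e-04). *Vip* was at 7.47 and 19.2 CPM at P7 and 54.7, 53.0, 53.2, 41.6 and 26.2 CPM at P14 (log2 fold change 1.78, adjusted p = 0.00213). *Cck*, *Calb1* and *Cort* rose by 1.70, 1.67 and 1.42, and *Sst* by 0.71. The lineage factors *Lhx6* and *Prox1* and the vesicular GABA transporter gene *Slc32a1* were not called (log2 fold changes −0.01, −0.45 and −0.27). *Gad1* rose by 0.52 and *Gad2* was not called (0.40, adjusted p = 0.315). The list thus had 45% higher and 10% lower, where all genes had 15.2% and 13.8%.

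Microglial genes rose almost without exception, 15 of 16 higher and none lower, against 15.2% of all genes, with a median of 0.79. The list summed to 265 and 339 CPM at P7 and 505 to 603 CPM at P14. *Tmem119*, a marker of mature resident microglia, was at 5.04 and 5.64 CPM at P7 and 22.3, 25.2, 23.9, 19.8 and 19.8 CPM at P14 (4.16-fold, log2 fold change 2.06 ± 0.15 SE, adjusted p = 2.41e-06). The purinergic receptor gene *P2ry12*, through which microglial processes sense ATP, was at 17.3 and 26.8 CPM at P7 and 78.5, 70.0, 67.3, 65.0 and 60.4 CPM at P14 (3.10-fold, adjusted p = 3.02e-05). Genes of the complement protein C1q, *C1qa*, *C1qb* and *C1qc*, rose less, by 0.84, 0.73 and 0.62 on the log2 scale. *Ctss*, *Csf1r* and *P2ry13* rose by 1.22, 1.08 and 1.05. The factor *Sall1* was not called (0.05, adjusted p = 0.881).

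Of 20 astrocyte genes 8 were higher (40%, against 15.2% of all genes) and 3 lower (15%, near the 13.8% of all genes). *Slc1a2*, the glutamate transporter GLT-1, was at 859.9 and 823 CPM at P7 and 2764, 3079.6, 2732, 3072 and 2750.0 CPM at P14 (3.42-fold, log2 fold change 1.77 ± 0.11 SE, adjusted p = 7.88e-07). *Gjb6*, connexin 30 of astrocyte gap junctions, was at 6.12 and 7.52 CPM at P7 and 41.2, 67.5, 58.6, 39.8 and 40.7 CPM at P14 (7.27-fold, adjusted p = 1.17e-05). The 2 P7 mice had much less of both than any P14 mouse. *Ntsr2* and *Etnppl* rose by 1.94 and 4.42 on the log2 scale. *Slc6a11*, the GABA transporter GAT-3, was lower (−1.42, adjusted p = 5.09e-04), with 383 CPM in P7 replicate 1, 149.6 in replicate 2 and 98.0 to 102 at P14. *Aqp4* and *Aldh1l1* were also lower (−0.74 and −0.59), and *Gfap* and *Slc1a3* (GLAST) were not called (−0.20 and 0.32).

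The count of myelin genes depended on P7 replicate 1. The list summed to 2766 and 419.8 CPM at P7 and 2342 to 7023 CPM at P14, so that P7 replicate 1, with its midbrain genes, lay inside the P14 range. The part of the midbrain RNA in this was not tested. Of 24 members 4 were called higher (16.7%, near the 15.2% of all genes) and none lower, with a median of 1.37. Without P7 replicate 1 the count was 18 with a median of 3.92, and without P7 replicate 2 it was 2 with a median of 0.71. *Mbp*, the basic protein of myelin, was at 968 and 78.0 CPM at P7 and 1434, 2020.4, 659, 1149 and 1687 CPM at P14 and was not called (log2 fold change 1.41, adjusted p = 0.179).

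*Opalin*, a membrane protein of mature oligodendrocytes, was called with 0.512 and 0.0104 CPM at P7 and 8.97, 12.1, 3.40, 6.57 and 10.7 CPM at P14 (log2 fold change 4.93 ± 0.89 SE, adjusted p = 0.00126), P7 replicate 1 having 60 reads and replicate 2 having 1. *Mal*, a proteolipid of compact myelin, was at 28.9 and 2.02 CPM at P7 and 117, 186, 46.3, 76.2 and 162 CPM at P14 (log2 fold change 2.92, adjusted p = 0.0239), a call that was lost without P7 replicate 2, with sex as a term, with the replicate block and with only the 7 P7 and P14 libraries in the fit. Within P14, replicate 3 was the lowest for *Opalin* and *Mal*. *Pdgfra*, the growth factor receptor of oligodendrocyte precursors, was at 215 and 201 CPM at P7 and 126, 125, 121, 108 and 118 CPM at P14 (log2 fold change −0.80 ± 0.08 SE, adjusted p = 1.97e-05), and *Cacng4* fell by 1.34 on the log2 scale. Of 14 precursor genes, the earlier stage of the same lineage, 4 were lower (28.6%, against 13.8% of all genes) and 2 higher (14.3%, against 15.2%). Without P7 replicate 1 it was 3 lower and 7 higher, and without P7 replicate 2, 5 lower and 1 higher.

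**Figure D4:**
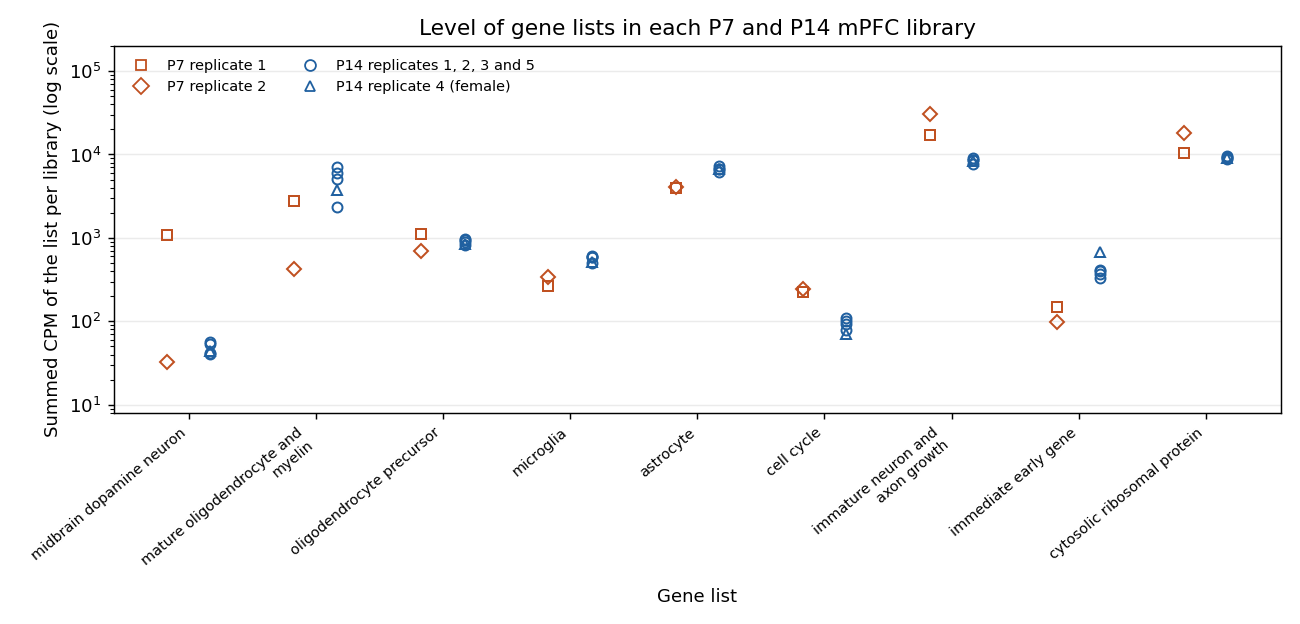
Summed CPM of 9 gene lists (x axis) in each P7 and P14 mPFC library (y axis, log scale); each point is 1 library. P7 replicate 1 stands at 1086 CPM for midbrain dopamine neuron genes, against 32.8 in P7 replicate 2, and at 2766 CPM for myelin genes, within the P14 range, while both P7 libraries lie above all P14 libraries for cell cycle genes and below them for microglial and immediate early genes.

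The ribosomal protein genes fell, and their count differed with the P7 library used. Of 80 tested genes 57 were lower (71.25%, against 13.8% of all genes) and none higher (median −0.64). The list summed to 10465 and 18333 CPM at P7 and 8873 to 9718 CPM at P14. *Rplp0*, the stalk protein P0, was at 372 and 629 CPM at P7 and 256, 252, 255, 249.7 and 237 CPM at P14 (2.00-fold lower, adjusted p = 1.66e-04), and *Rps12* at 152 and 275 CPM at P7 and 106, 93.5, 101, 100.4 and 99.96 CPM at P14 (adjusted p = 3.18e-04). For both genes replicate 2 was the higher P7 library and replicate 1 lay closer to P14. Without P7 replicate 1 the count was 78, without P7 replicate 2 it was 17, and with sex as a term it was 35. The genes of cholesterol synthesis had 7 of 17 members lower and none higher (median −0.62), among them *Fdps* (−1.19), *Mvd* (−0.99) and *Nsdhl* (−0.89, not called without P7 replicate 2). That count was 13 without P7 replicate 1 and 5 without P7 replicate 2.

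Of 19 genes of the extracellular matrix and perineuronal nets 5 were higher (26.3%, against 15.2% of all genes) and 5 lower (26.3%, against 13.8%). *Vcan*, the chondroitin sulfate proteoglycan versican of the young matrix, was at 137 and 194 CPM at P7 and 50.9, 53.7, 37.2, 44.9 and 49.2 CPM at P14 (log2 fold change −1.81 ± 0.15 SE, adjusted p = 4.29e-06). The hyaluronan synthase gene *Has3* was at 19.1 and 19.9 CPM at P7 and 4.53, 5.65, 3.56, 5.79 and 5.48 CPM at P14 (3.90-fold lower, adjusted p = 1.12e-04). *Has2* and *Tnc*, which encodes tenascin C, fell by 1.84 and 1.49 on the log2 scale, the call of *Tnc* being lost without P7 replicate 2. *Hapln4*, a link protein of perineuronal nets, rose from 5.41 and 0.334 to 7.31 to 13.1 CPM (1.82, adjusted p = 0.0479), a call that was lost without any single P14 library, and *Tnr* (tenascin R) rose by 0.70. The call of *Hapln4* was also lost with sex or replicate number as a term and with only the P7 and P14 libraries in the fit. Aggrecan (*Acan*), brevican (*Bcan*) and neurocan (*Ncan*) were not called. The higher count was 3 of 19 without P7 replicate 2 or without any single P14 library.

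Genes that respond to thyroid hormone, whose blood level rises in this period, were higher in 5 of 8 cases and lower in none. That is 62.5% higher, against 15.2% of all genes. *Klf9*, a direct target of the hormone receptor, was at 84.4 and 95.7 CPM at P7 and 229.6, 260.1, 232, 240.1 and 226 CPM at P14 (2.64-fold, log2 fold change 1.40 ± 0.13 SE, adjusted p = 1.09e-05). *Dio2*, the deiodinase that makes the active hormone, rose by 1.07 and *Nrgn* (neurogranin) by 1.11 on the log2 scale, whereas *Thra*, a receptor of the hormone, was not called (0.06). Endothelial genes included the organic anion carrier *Slco1a4* (2.83-fold, adjusted p = 8.79e-05) and *Ly6c1* (1.55) among 5 of 17 higher (29.4%, against 15.2% of all genes). The median log2 fold change of this list was 0.25, and 0.03 without P7 replicate 2.

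RNA-binding proteins of development and DNA methylation genes had members on both sides. *Igf2bp3*, a fetal mRNA-binding protein, was at 3.54 and 3.03 CPM at P7 and 0.634, 0.440, 0.725, 0.456 and 0.579 CPM at P14 (5.77-fold lower, adjusted p = 4.04e-05), and *Mbnl2*, a splicing factor of the adult brain, at 73.9 and 85.6 CPM at P7 and 255, 253, 255, 246 and 227 CPM at P14 (3.10-fold higher, adjusted p = 5.52e-07). Neither gene overlapped between the ages. Of the 25 listed RNA-binding genes 6 were lower (24.0%, against 13.8% of all genes) and 4 higher (16.0%, near the 15.2% of all genes). Their median log2 fold change was −0.195, with −0.08 without P7 replicate 1 and −0.40 without P7 replicate 2. *Rbfox1* was among those higher (0.57, adjusted p = 0.00352), and *Khdrbs2* and *Celf6* among those lower (−0.99 and −0.56), the call of *Celf6* being lost without P7 replicate 1, with sex as a term and with the replicate block. Of 15 DNA methylation genes 4 were higher (26.7%, against 15.2% of all genes) and 3 lower (20%, against 13.8%). The latter were *Uhrf1*, *Dnmt3b* (−0.95) and *Dnmt1* (−0.38). The call of *Dnmt3b* was lost without P7 replicate 1, without P14 replicate 3, 4 or 5, with no filter, with the replicate block and with only the 7 P7 and P14 libraries in the fit. All 3 *Gadd45* genes, which link stress and activity to DNA demethylation, rose, *Gadd45b* by 1.86 and *Gadd45a* by 1.44 on the log2 scale.

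The study's list of genes related to autism spectrum disorder (ASD) was called about as often as other genes. Of 100 genes 96 were tested, 14 were higher (14.6%) and 12 lower (12.5%), close to the 15.2% and 13.8% over all genes, with a median of 0.08. Besides *Gria3* and *Scn1a*, the kinase gene *Map2k1* was at 105 and 150.3 CPM at P7 and 289, 280.4, 322, 269.8 and 276 CPM at P14 (2.25-fold higher, adjusted p = 2.34e-04). *Slc6a8*, the creatine transporter, rose by 0.86 on the log2 scale, a call that was lost without P7 replicate 2, with sex as a term and with the replicate block. *Rpe65* was called higher on 2 reads in each P7 library and 21 to 31 reads in each P14 library.

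After *Dcx*, the largest falls among the 12 ASD-related genes called lower were those of *Nhs* (−1.05), *Ap1s2* (−0.95), *Gatm* (−0.72), *Phf6* (−0.56) and *Dhcr7* (−0.56), the last encoding the final enzyme of cholesterol synthesis. *Ap1s2*, an adaptor of endosomal vesicles, was at 54.5 and 35.1 CPM at P7 and 25.6, 24.7, 21.9, 22.6 and 21.1 CPM at P14 (adjusted p = 9.09e-04). *Gatm*, the first enzyme of creatine synthesis, was at 66.4 and 80.5 CPM at P7 and 47.9, 47.8, 42.5, 38.8 and 46.3 CPM at P14 (adjusted p = 0.0155). The call of *Nhs* was lost without P7 replicate 1 and that of *Gatm* without P7 replicate 2. *Dhcr7* was at 43.5 and 42.6 CPM at P7 and 26.7, 28.9, 26.9, 34.2 and 29.2 CPM at P14, with P7 values nearly the same in both mice and all P14 values lower.

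The second deposited table counts reads on antisense contigs, stretches of transcript that the authors assembled on the strand opposite to a known gene. Contigs held 34.2% to 35.7% of all counted reads in each library. How cleanly the strands were separated in these counts could not be checked without the reads, so that an antisense share is the share of reads counted on the contig. Of 32174 tested contigs 9590 (29.8%) were called, 6212 higher (19.3%) and 3378 lower (10.5%) when scaled by the gene table. Scaling by the contig table itself gave 5080 higher and 4504 lower, which takes the share of higher calls from 64.8% to 53.0%, so that the balance of directions depends on the scaling. The contigs with the widest gaps, 5 in each direction, lay for 73.2% to 100% of their length opposite exons of genes that had moved. A contig of *Fam107a* (925 bases within chromosome 14, 8298522 to 8309789, plus strand, 98.7% of it opposite exons) had 21.7% of the contig and gene reads at P7 and 21.4% at P14. The *Fabp7* contig had 49.9% at both ages, that is, about as many reads as the gene on the opposite strand, and the *Tubb2b* contig 31.7% and 31.8%. For these 3 contigs no change of the ratio was called (adjusted p = 0.906, 0.975 and 0.981 by limma).

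Contigs that moved by another amount than their gene were few. The ratio of contig to gene reads was called for 368 of 30013 pairs (1.23%), 215 higher (0.716%) and 153 lower (0.510%). Contigs were classed by the exons of the gene they were assigned to, and exons of other genes in the same place were not looked at. Contigs with no base opposite an exon of that gene had 48 called of 1542 pairs (3.11%), with a median of 37.6 reads. Those with at least 95% of their bases opposite its exons had 212 of 19856 (1.07%), with a median of 738 reads. Contigs of 1 gene share its gene reads, so these pairs are not independent, and genes were not counted per class. The called contigs with no base opposite an exon of their assigned gene included 6 of *Pcdhgb7* and 5 of *Spef1* that were called higher. Among contigs with a mean of at least 50 reads at one age, the 5 strongest increases all belonged to *Pcdhgb7*, a gamma protocadherin gene of neuronal self-recognition, within 37819521 to 37822067 of chromosome 18 on the minus strand and in none of its exons. Their antisense share is given for 1 of them, a contig of 604 bases with 25.9% and 39.6% in the P7 libraries and 80.03%, 80.1%, 81.6%, 80.6% and 78.0% in the P14 libraries (log2 ratio change 3.07 ± 0.18 SE, adjusted p = 7.77e-07). The other 4 had log2 ratio changes of 2.94 to 3.14, and the gene itself was not called (log2 fold change −0.18, adjusted p = 0.608). The ratio was taken to the reads of *Pcdhgb7* alone. Whether these contigs lie opposite an exon of another gene, and move with that gene, was not tested. A further 3 *Pcdhgb7* contigs were called lower in ratio (−0.85, −0.82 and −0.79), with a mean of 1952, 1832 and 1302 reads at P7 and 823, 795 and 568 at P14. The 5 rising contigs lie next to each other and are not independent of one another.

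With the same limit of 50 reads, the 5 strongest decreases came from pairs in which the gene rose and the contig did not. *Agbl4*, which encodes an enzyme that trims glutamates from tubulin, rose by 1.32 on the log2 scale, while its contig of 207 bases in an intron (chromosome 4, 111454092 to 111454298, minus strand) was not called (−0.13). The antisense share of this pair was 39.8% and 33.9% in the P7 libraries and 19.2%, 20.7%, 17.8%, 14.6% and 18.2% in the P14 libraries (log2 ratio change −1.41 ± 0.19 SE, adjusted p = 0.00155). The *Yjefn3* contig went from 12.5% to 4.28% (log2 ratio change −1.70 ± 0.30 SE, adjusted p = 0.0131). The other 3, all *Gm20695* contigs, rest on few gene reads, 2 and 3 in the P7 libraries and 5 to 11 in the P14 libraries. Without P7 replicate 1 the ratio was no longer called for *Yjefn3* or *Gm20695*. The *Gm20695* ratios were also lost with sex or replicate number as a term, and that of *Yjefn3* with only the P7 and P14 libraries in the fit. Of the 271 tested contigs on 77 ASD-related genes 42 were higher (15.5%, against 19.3% of all contigs) and 27 lower (9.96%, against 10.5%), and the ratio was called for 3 (1.11%, against 1.23%).

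**Figure D5:**
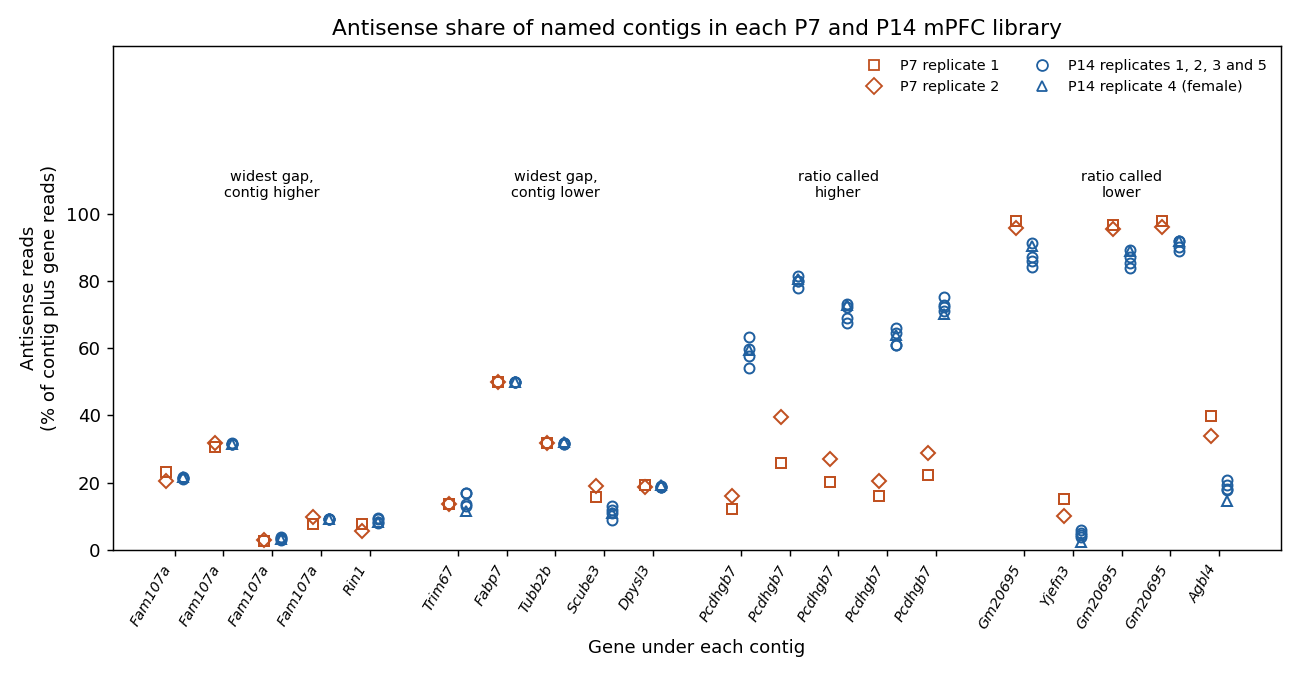
Antisense share, the contig's reads as a percentage of contig plus gene reads (y axis), in each P7 and P14 mPFC library for the contigs with the widest gap between ages and those with the largest called change of ratio, named by their gene (x axis). Contigs of *Fabp7* and *Tubb2b* have nearly the same share at both ages, the *Pcdhgb7* contigs rise to 80.1% on average in the contig of 604 bases, and the *Agbl4* contig falls from 36.9% to 18.1%.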

How the data were processed

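Punches of mPFC from 2 P7, 5 P14 and 5 P56 mice gave stranded total RNA libraries read at 50 bases. The authors deposited raw counts, 1 table of genes and 1 of antisense contigs, and a GRCm38 annotation that gives other values, the positions of genes and contigs. They used CASAVA 1.8.4, FastQC 0.11.5 and STAR, assembled contigs with Trinity, removed known lncRNA and antisense features from the annotation, and counted uniquely mapped reads by strand. Ages were compared with edgeR 4.0.16 (quasi-likelihood test, TMM, R 4.3.3) on the 12 mPFC libraries, after a filter of 10 reads in at least 3 of them, with Benjamini-Hochberg adjustment. Contigs were scaled by the library sizes of the gene table. The P56 libraries thus entered the filter and the estimate of spread. The ratio of contig to gene reads was tested with limma 3.58.1 on log2 values with 0.5 reads added. DESeq2 1.42.0 was an alternative. Each test was tried on simulated data. No 2 libraries were duplicates, since at most 0.356% of well covered genes had identical counts in any of 21 pairs. Gene reads per library (87986885 to 116702588) set the precision, and counts near 0 carry counting error. Named genes were, per list, up to 5 called members with the largest log2 fold change and at least 1 CPM at one age, all subunit pairs, the 10 protein-coding genes per direction with the widest gap and at least 10 CPM, up to 6 ASD-related genes per direction, and contigs by gap or ratio with at least 50 reads. Genes named beyond these were chosen after their values were seen. Contigs assayed by TaqMan, Y-linked genes, *Xist* and some genes that this rule names are not reported here. Members and lists were chosen with earlier results of these data known. Libraries of 1 age are separate mice.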

Additional observations from a re-analysis of the deposited data

Results flagged for a closer look

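Among the 5 P14 libraries, 22 of 155 named genes had 1 library that stood apart by Dixon's ratio (above 0.71). That limit passes about 1 in 20 sets of independent normal values. The named genes share the same libraries and were not picked at random, so their count cannot be set against that rate. In 15 of the 22 genes the library was replicate 4, the only female, always as the highest. The part of sex in this was not tested. Genes called between the ages with replicate 4 as the highest were *Dcx* (75.0 CPM), *Grin2a* (525 CPM), *Gria3* (349.6 CPM), *Grin1* (515 CPM), *Kcna2* (291 CPM), *Scn8a* (409.5 CPM), *Dlgap2* (88.1 CPM), *Fosb* (4.42 CPM), *Egr1* (101 CPM), *Dlg4* (300.4 CPM), *Trim67* (5.02 CPM) and *Stk32b* (1.36 CPM). Genes not called were *Tubb4a* (326 CPM), *Grin2b* (1450.3 CPM) and *Slc12a5* (360.0 CPM). Each call of this group held without P14 replicate 4 (adjusted p at most 0.0206). Replicate 1 was the highest of the P14 libraries for *Phf6* (37.7 CPM). Replicate 3 was the lowest of the P14 libraries for *Snap25* (1319 CPM). Replicate 5 was the highest of the P14 libraries for *Sox11* (23.1 CPM) and *Slc6a4* (0.925 CPM). Replicate 5 was the lowest of the P14 libraries for *Rarb* (7.68 CPM), *Gabra4* (151 CPM) and *Nrgn* (353 CPM).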

How the results depend on the processing

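Counts over all genes and all contigs stayed within 1.5 times of the values given, except with a 2-fold change demanded as well (940 higher and 929 lower for genes, 3 higher and 2 lower for ASD-related genes, 1918 higher and 914 lower for contigs). The count of ASD-related genes called higher also moved by more than that with the replicate number as a block, from 14 to 7. Which direction had more genes depended on the setting, with more lower than higher calls without P7 replicate 1 (2934 higher and 3432 lower), without P14 replicate 1 (2488 and 2565), without P14 replicate 3 (2454 and 2504), with median-of-ratios size factors (2689 and 2745) and by adjusted p alone (2928 and 2932). Leaving out 1 library in turn gave 2454 to 3118 genes higher and 2319 to 3432 lower, 10 to 16 and 10 to 16 ASD-related genes, 5642 to 6707 and 2988 to 4514 contigs, and 140 to 260 and 97 to 175 ratios. DESeq2 called 2960 higher and 2877 lower genes, and sex as a term 2302 higher and 1893 lower. Ratio counts moved more, to 111 higher and 103 lower with only the P7 and P14 libraries in the fit and to 100 higher and 79 lower with sex as a term. With 1 library left out, the fewest ratios were called higher without P14 replicate 2 (140) and lower without P7 replicate 2 (97). The cause was not tested. Replicate numbers are shared between ages by different mice. The deviations of same-numbered libraries from their group means correlated at −0.42 and 0.03. The deviations of the 2 P7 libraries are mirror images of each other, so these values cannot show whether the numbers pair libraries. With the replicate number as a block 2220 higher and 1843 lower genes, 7 higher and 11 lower ASD-related genes, 5031 higher and 2416 lower contigs and 168 higher and 140 lower ratios were called. Of 2480 values of 155 named genes under the alternatives, 135 fell below the threshold and 6 rose above it. A further 2 changed sign without a call in either fit, and 1 was reversed, that of *Th*. Its log2 fold change was 1.30 without P7 replicate 1 and −5.04 without P7 replicate 2. All 160 values of the 10 named contigs kept their call, and 11 of 136 of the named ratios lost it. Precision is limited by the 2 P7 mice more than by depth, since each library holds at least 87986885 gene reads.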

Other observations

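Several lists had few members called, where 15.2% of all genes were higher and 13.8% lower. Blood and meningeal genes had 0 of 5 and 0 of 8 members called, the mitochondrially encoded genes 0 of 10 (3 higher without P7 replicate 2), medium spiny neuron genes 1 of 11 (*Rarb*, 1.02, a call lost without P7 replicate 1) and choroid plexus and ependyma genes 1 of 8 (*Rsph1*, 0.93, a call lost without either P7 library). The call of *Rsph1* was also lost with sex as a term and without P14 replicate 1 or 3. The thalamic list had 1 of 7 lower, *Slc17a6*, which encodes the second vesicular glutamate transporter, at 220.4 and 55.7 CPM at P7 and 29.8, 27.4, 26.6, 35.04 and 34.1 CPM at P14 (log2 fold change −2.17 ± 0.32 SE, adjusted p = 3.04e-04). P7 replicate 1 was again the higher library, and without it the fall was 0.88 on the log2 scale (adjusted p = 0.00125). Among calcium and HCN channel genes *Cacna1e* was higher (0.61) and *Hcn4* was lower (−2.19, adjusted p = 7.94e-04). The call of *Cacna1e* was lost without P7 replicate 2 or P14 replicate 5, with sex as a term and with the replicate block. It was also lost with only the P7 and P14 libraries in the fit.

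Small nuclear and nucleolar RNA genes were called less often than all genes in both directions. This was not particular to them, since processed pseudogenes had 3.35% higher and 5.15% lower. Protein-coding genes, most of those tested, had 17.6% higher and 15.5% lower. Of 295 snoRNA genes tested 24 were lower (8.14%, against 13.8% of all genes) and 3 higher (1.02%, against 15.2%), and of 127 snRNA genes 9 were lower (7.09%) and none higher. The 277 miRNA genes had 14 higher and 6 lower, counted over their annotated hairpins in libraries that were not made for small RNA. Protein-coding genes that rose had a median span of 27.4 kb, and those that fell 22.2 kb, with 24.1 kb over all tested. Midbrain dopamine neuron genes had 2 of 8 members lower, *Slc6a3* and *Slc18a2*. *Slc18a2*, the vesicular monoamine transporter, was at 122 and 7.33 CPM at P7 and 1.29, 1.17, 2.33, 1.30 and 2.45 CPM at P14, and without P7 replicate 1 its fall was 2.12 on the log2 scale (adjusted p = 0.00136), whereas *Slc6a3* was no longer called.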
